A study of Salvia miltiorrhiza with 5 samples.

Results

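CPS2 and CPS3 are 2 of the copalyl diphosphate synthase genes of *Salvia miltiorrhiza*, and their transcripts were followed in hairy roots treated with methyl jasmonate (MeJA) or yeast extract (YE). The assembled transcripts, called unigenes, were taken from the list of tanshinone genes that the study named: 4 unigenes for CPS2 and 3 for CPS3, which made 7 of the 55588 unigenes of the assembly. These 7 were picked with their values in these libraries known, the ratios of elicited libraries to the control among them. Every level and ratio of CPS2 and CPS3 given here is therefore a description, and no test was made on them. The same list gives the name CPS3 to 2 further unigenes, which stood outside the choice and are given separately. The gene names are those of the study's list, and they were not checked against a sequence here.

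Copalyl diphosphate synthases are class II diterpene synthases. They fold the linear precursor geranylgeranyl diphosphate into the bicyclic copalyl diphosphate, which a kaurene synthase-like enzyme (KSL) then takes on to a diterpene hydrocarbon, and cytochromes P450 oxidise it further. In roots of *S. miltiorrhiza*, CPS1 and KSL1 lead to miltiradiene and, through CYP76AH1 and CYP76AH3, to the tanshinones, whereas CPS5 belongs to the route to the gibberellin hormones.

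The hairy roots were grown as shake-flask cultures for 40 days. Roots treated with MeJA were harvested after 1 h (MeJA-1h) and 6 h (MeJA-6h), roots treated with YE were harvested after 1 h (YE-1h) and 12 h (YE-12h), and the control was harvested at 0 h without an elicitor. Hairy roots are transformed organs that grow after infection with *Agrobacterium* carrying an Ri plasmid, and all 5 groups, the control included, carried this transformation. Each group was 1 library made from the mixed RNA of 3 cultures, so the variation between cultures could not be measured. All intervals given are 95% intervals of the read counts, and they cover counting error only. Neither a later untreated library nor one with the solvent alone was used here, so that time, handling, solvent and elicitor cannot be told apart, nor can a library's preparation and its treatment.

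The libraries held between 13395770 read pairs (control) and 20358510 read pairs (YE-12h). At these depths 3 reads on a unigene of 1 kb corresponded to between 0.147 and 0.224 RPKM (reads per kilobase of unigene, scaled by the library total). The root tanshinone enzymes KSL1 and CYP76AH1 were each read from the unigene of that name with the highest mean RPKM. These unigenes were abundant in all 5 libraries, at or above the percentiles 95.1 and 98.7 of all unigenes.

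The CPS2 and CPS3 unigenes were short beside those of CPS1 and CPS5. They measured between 488 and 1121 bp, whereas the unigenes of CPS1 measured 2831 and 3211 bp and those of CPS5 measured 2734 and 2467 bp. The single CPS4 unigene, at 844 bp, lay in the range of CPS2 and CPS3, and the median of all unigenes was 1019 bp. The 4 CPS2 unigenes summed to 3251 bp and the 3 CPS3 unigenes to 2221 bp. Each unigene was therefore shorter than any CPS1 or CPS5 unigene, and unigenes of 1 gene were not treated as replicates, since whether they are pieces of the same transcript was not tested. Names of unigenes carry the library they were assembled from in part of the cases. Of the 7 unigenes, 2 carried MeJA-1h, 3 carried MeJA-6h, none carried YE or the control, and 2 carried no library. A MeJA library stood in the names of 71.4% of them, against 17.7% of all unigenes. How far homologous CPS transcripts shared reads was not tested.

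The CPS2 unigenes lay between the percentiles 13.2 (in YE-12h) and 84.3 (in MeJA-1h) of all unigenes, and CPS2 was highest at 1 h of MeJA. The longest CPS2 unigene, c21908_Smj-1h_g1_i1 (1121 bp), had 12.5 RPKM in MeJA-1h, 6.21 RPKM in MeJA-6h, 5.43 RPKM in YE-1h, 4.11 RPKM in YE-12h and 5.24 RPKM in the control, from 225, 109, 115, 93 and 78 reads. MeJA-1h stood apart, and the other 4 libraries lay close together. SmiContig13549 (894 bp) had 8.91 RPKM in MeJA-1h, 7.92 RPKM in MeJA-6h, 5.09 RPKM in YE-1h, 3.42 RPKM in YE-12h and 3.49 RPKM in the control, from 128, 112, 87, 62 and 42 reads. Here both MeJA libraries were high, and YE-12h and the control lay close together. c20665_Smj-6h_g1_i1 (748 bp) had 6.82 RPKM in MeJA-1h, 5.82 RPKM in MeJA-6h, 2.37 RPKM in YE-1h, 2.01 RPKM in YE-12h and 3.15 RPKM in the control, from 82, 69, 34, 30 and 31 reads. Again both MeJA libraries were high, but both YE libraries lay under the control. The shortest unigene, SmiContig9917 (488 bp), had 8.16 RPKM in MeJA-1h, 1.61 RPKM in MeJA-6h, 3.44 RPKM in YE-1h, 1.69 RPKM in YE-12h and 2.56 RPKM in the control, from 64, 12, 32, 16 and 16 reads. It was the lone CPS2 unigene with a MeJA-6h level under the control. All 4 CPS2 unigenes were highest in MeJA-1h, as were 12.2% of all unigenes with at least 30 reads. In bulk RNA a lower share of one cell type and less RNA per cell cannot be told apart.

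CPS3 was rarer, and it was highest in the MeJA libraries. c12539_Smj-6h_g1_i1 (973 bp) had 2.68 RPKM in MeJA-1h, 3.65 RPKM in MeJA-6h, 0.669 RPKM in YE-1h, 0.826 RPKM in YE-12h and 0.875 RPKM in the control, from 42, 56, 12, 16 and 11 reads. c13063_Smj-6h_g1_i2 (641 bp) had 1.45 RPKM in MeJA-1h, 3.46 RPKM in MeJA-6h, 0.603 RPKM in YE-1h, 0.753 RPKM in YE-12h and 0.629 RPKM in the control, from 15, 35, 7, 10 and 5 reads. c24053_Smj-1h_g1_i1 (608 bp) had 3.28 RPKM in MeJA-1h, 2.24 RPKM in MeJA-6h, 0.345 RPKM in YE-1h, 0.687 RPKM in YE-12h and 0.614 RPKM in the control, from 32, 21, 4, 8 and 5 reads. In all 3 the lower MeJA library was above the highest of YE-1h, YE-12h and the control, a pattern met by 8.99% of all unigenes with at least 30 reads. For c13063_Smj-6h_g1_i2 the interval of the MeJA-1h level (0.809 to 2.38 RPKM) overlapped those of YE-12h (0.361 to 1.38 RPKM) and of the control (0.204 to 1.47 RPKM). The MeJA library that was highest differed: MeJA-6h for c12539_Smj-6h_g1_i1 and c13063_Smj-6h_g1_i2, and MeJA-1h for c24053_Smj-1h_g1_i1. Of all unigenes with at least 30 reads, 14.5% were highest in MeJA-6h. In YE-1h, YE-12h and the control no CPS3 unigene of the 3 had more than 16 reads, and their levels lay at or under the percentile 3.40 of all unigenes.

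**Figure D1:**
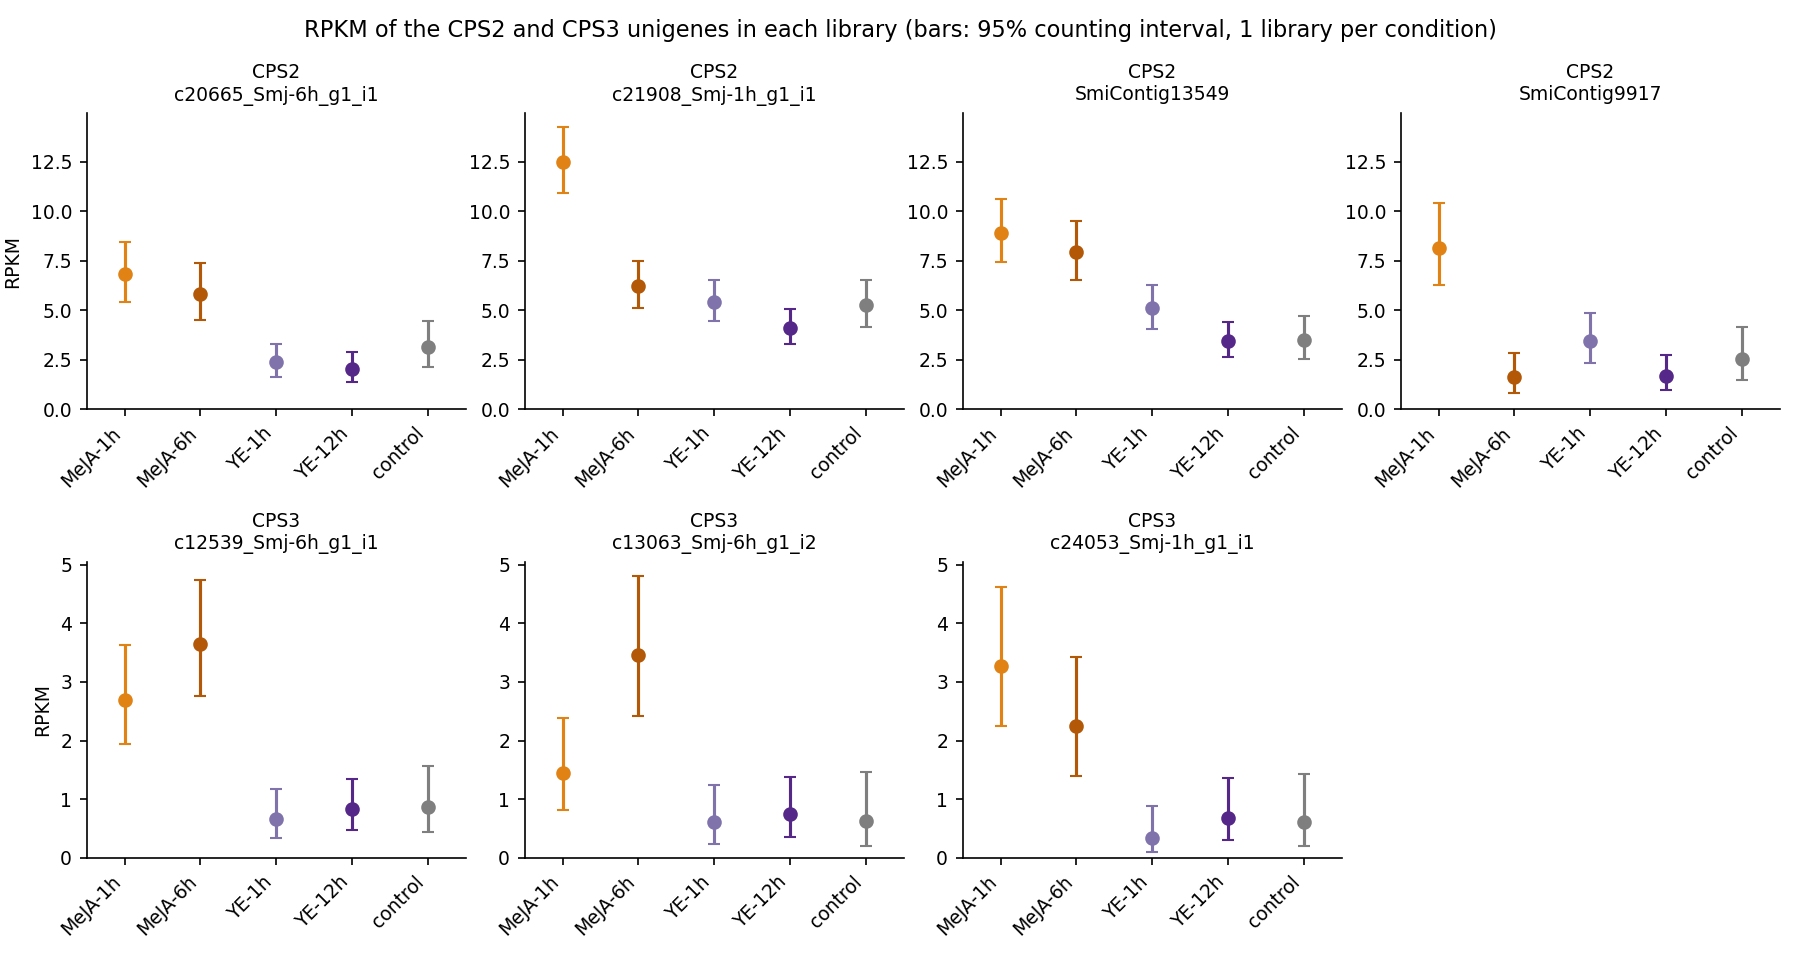
RPKM of the 4 CPS2 unigenes (upper row) and the 3 CPS3 unigenes (lower row) in each library; points are the deposited values of 1 library per condition and bars are 95% counting intervals, with a separate vertical scale for each row. The CPS2 unigenes peak in MeJA-1h, between 6.82 and 12.5 RPKM, and the CPS3 unigenes reach at most 3.65 RPKM, in MeJA-6h.

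The 2 further CPS3 unigenes had levels of a similar size. c9968_Smj-1h_g1_i3 (1044 bp) had 2.86 RPKM in MeJA-1h, 2.56 RPKM in MeJA-6h, 0.471 RPKM in YE-1h, 0.719 RPKM in YE-12h and 1.02 RPKM in the control. SmiContig11803 had 2.27 RPKM in MeJA-1h, 3.77 RPKM in MeJA-6h, 0.731 RPKM in YE-1h, 0.684 RPKM in YE-12h and 1.08 RPKM in the control. The YE-1h ratio of c9968_Smj-1h_g1_i3 to the control was 0.461 (0.173 to 1.12, from 9 and 14 reads), and the intervals of both unigenes included 1 at both YE times.

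The first question of the design was how each elicitor changed the genes relative to the untreated roots. At 1 h of MeJA, 7 of the 7 unigenes were past a 2-fold ratio of RPKM to the control, as were 7.57% of all unigenes tested. At 6 h of MeJA, 4 of 7 were past it, namely the 3 CPS3 unigenes and SmiContig13549 of CPS2, against 6.84% of all. These 4 were past it at both MeJA times, as were 3.79% of all unigenes. At 1 h and at 12 h of YE none of the 7 was past it in either direction, against 7.81% and 4.37% of all unigenes that were past it upwards and 7.95% and 7.26% that were under a ratio of 0.5. The choice of the unigenes used these ratios, so nothing is read from these counts.

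For CPS2, the MeJA-1h ratios to the control lay between 2.16 and 3.19. They were 2.16 for c20665_Smj-6h_g1_i1 (1.44 to 3.45), 2.39 for c21908_Smj-1h_g1_i1 (1.85 to 3.15), 2.55 for SmiContig13549 (1.78 to 3.69) and 3.19 for SmiContig9917 (1.91 to 6.18), with counting intervals in parentheses. The intervals of all 4 lay above 1, as they did for 11.9% of all unigenes, and overlapped each other. At 6 h of MeJA, SmiContig13549 was at 2.27 (1.57 to 3.31) and c20665_Smj-6h_g1_i1 at 1.84 (1.22 to 2.99), whereas the interval of c21908_Smj-1h_g1_i1 included 1, at 1.19 (0.879 to 1.61), and SmiContig9917 was at 0.630 (0.275 to 1.43). The intervals of SmiContig13549 and SmiContig9917 did not overlap.

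For CPS3, the MeJA-1h ratios to the control were 3.07 for c12539_Smj-6h_g1_i1 (1.61 to 6.85), 5.34 for c24053_Smj-1h_g1_i1 (2.06 to 17.5) and 2.30 for c13063_Smj-6h_g1_i2, whose interval of 0.864 to 8.80 included 1. At 6 h of MeJA they were 4.17 for c12539_Smj-6h_g1_i1 (2.24 to 9.14), 3.65 for c24053_Smj-1h_g1_i1 (1.31 to 12.1) and 5.50 for c13063_Smj-6h_g1_i2 (2.32 to 19.4), all 3 with intervals above 1, as 13.1% of all unigenes had. The wide intervals came from the control, where the 3 unigenes had 11, 5 and 5 reads. With YE, the counting intervals of all 7 unigenes included 1 at both times. Among all unigenes the interval lay above 1 for 14.7% and below 1 for 28.3% in YE-1h, and above 1 for 11.1% and below 1 for 26.1% in YE-12h. The YE-1h ratios of the 7 to the control lay between 0.563 and 1.46, and their YE-12h ratios lay between 0.638 and 1.20. A ratio whose interval includes 1 was not distinguishable from the control at this depth, and such an interval does not show that the level stayed the same.

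Summing the reads of each gene narrowed the intervals, which cover counting error and not the spread between the unigenes of a gene. In MeJA-6h the CPS2 sum pools SmiContig13549 at 2.27 and SmiContig9917 at 0.630, whose intervals did not overlap. CPS2 had 499 reads in MeJA-1h and 302 in MeJA-6h, 268 in YE-1h, 201 in YE-12h and 167 in the control. Scaled by the library totals, its ratio to the control was 2.49 in MeJA-1h (2.09 to 2.99) and 1.53 in MeJA-6h (1.27 to 1.87), and 1.13 after 1 h of YE (0.927 to 1.38) and 0.792 after 12 h (0.642 to 0.978). CPS2 was thus highest at 1 h of MeJA and lowest at 12 h of YE. The 3 CPS3 unigenes had 89 reads in MeJA-1h and 112 in MeJA-6h, 23 in YE-1h, 34 in YE-12h and 21 in the control. The CPS3 ratio to the control was 3.53 in MeJA-1h (2.18 to 5.99) and 4.53 in MeJA-6h (2.82 to 7.60), and 0.770 after 1 h of YE (0.407 to 1.46) and 1.07 after 12 h (0.601 to 1.93). With all 5 CPS3 unigenes the ratios were 2.97 in MeJA-1h (2.15 to 4.18) and 3.69 in MeJA-6h (2.69 to 5.17), and 0.659 after 1 h of YE (0.429 to 1.01) and 0.850 after 12 h (0.574 to 1.27).

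**Figure D2:**
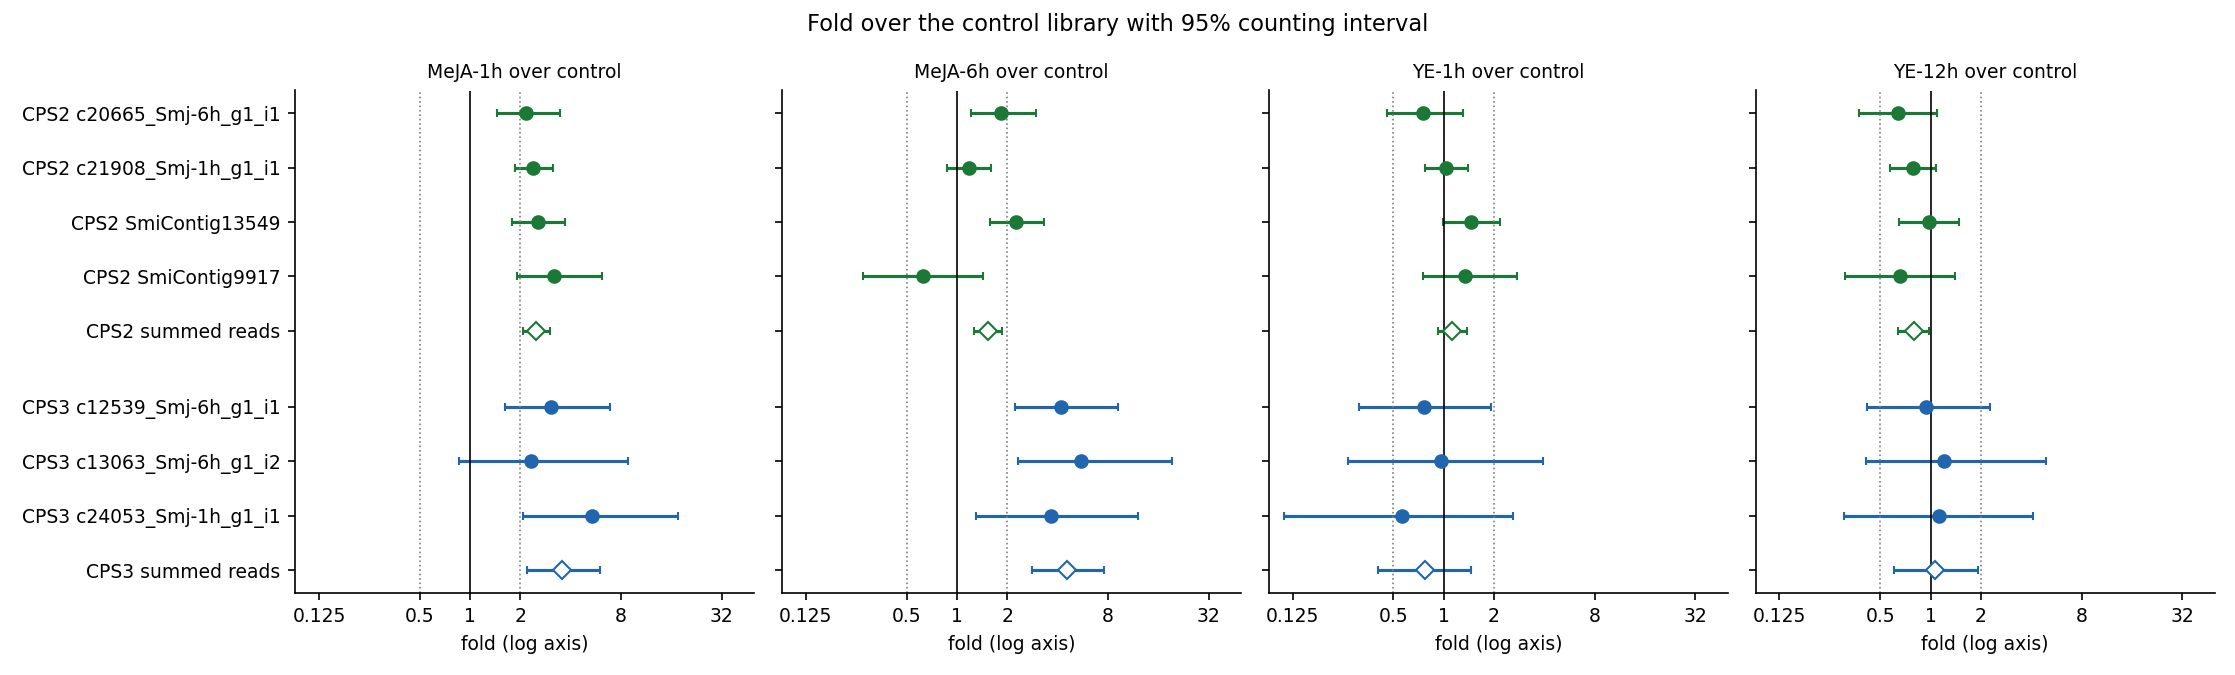
Ratio of each elicited library to the control (logarithmic axis) for each CPS2 unigene, each CPS3 unigene and the summed reads of each gene (open diamonds); bars are 95% counting intervals, the solid line marks 1 and the dotted lines mark 0.5 and 2. The summed ratios in MeJA-1h are 2.49 for CPS2 and 3.53 for CPS3, and with YE every unigene's interval crosses 1 when scaled by the library totals.

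The YE values near the control depended on the scaling between libraries. The median ratio of all unigenes to the control was below 1, at a log2 value of -0.29 in MeJA-1h and -0.24 in MeJA-6h, and -0.16 after 1 h of YE and -0.17 after 12 h. The 7 unigenes had a median log2 ratio of 1.35 in MeJA-1h and 1.18 in MeJA-6h, and -0.06 after 1 h of YE and -0.08 after 12 h. Relative to all unigenes these were 1.64, 1.42, 0.10 and 0.08. With the TMM factors of edgeR, which centre the bulk of the unigenes, the CPS2 ratio in YE-1h was 1.25 (1.02 to 1.52) and that in YE-12h was 0.886 (0.718 to 1.09), so that the interval in YE-1h no longer included 1 and the one in YE-12h did. With the same factors SmiContig13549 and c12539_Smj-6h_g1_i1 turned to above 1 in YE-12h, and c13063_Smj-6h_g1_i2 turned to above 1 in YE-1h, where the interval of SmiContig13549 also came to lie above 1. With either scaling, 7 of the 7 unigenes were above 1 in MeJA-1h and 6 of 7 in MeJA-6h. By the library totals 29.5% of all unigenes were above 1 in MeJA-1h and 33.1% in MeJA-6h.

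The elicited libraries were also set against each other, which leaves the control out. From the 1 h to the 6 h harvest after MeJA, CPS2 and CPS3 stood on opposite sides of 1. The MeJA-6h over MeJA-1h ratio of the summed CPS2 reads was 0.616 (0.532 to 0.712), and that of CPS3 was 1.28 (0.961 to 1.71), with an interval that included 1. With all 5 CPS3 unigenes it was 1.24 (1.01 to 1.53). All 4 CPS2 unigenes were lower in MeJA-6h than in MeJA-1h, where the median log2 ratio of all unigenes was 0.025. Of the 4, 2 were under a ratio of 0.5, as were 7.81% of all unigenes. These were SmiContig9917 at 0.198 (0.0938 to 0.357) and c21908_Smj-1h_g1_i1 at 0.497 (0.389 to 0.623), and their intervals lay below 1, as did those of 17.4% of all unigenes. The other 2, c20665_Smj-6h_g1_i1 at 0.853 (0.613 to 1.19) and SmiContig13549 at 0.889 (0.685 to 1.16), had intervals that included 1. Of the 6 pairs of CPS2 unigenes, 4 had intervals that did not overlap. SmiContig9917, with 12 reads in MeJA-6h, was in each of these except the pair of c21908_Smj-1h_g1_i1 and SmiContig13549. How common this was among pairs of other unigenes was not counted, and the interval of the sum does not cover this spread.

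The CPS3 unigenes lay on both sides of 1 between the MeJA times. c13063_Smj-6h_g1_i2 was at 2.39 (1.26 to 4.68), past 2-fold like 6.29% of all unigenes, and its interval lay above 1, as it did for 19.4% of all. c12539_Smj-6h_g1_i1 was at 1.36 (0.894 to 2.08) and c24053_Smj-1h_g1_i1 at 0.684 (0.366 to 1.20). The intervals of c13063_Smj-6h_g1_i2 and c24053_Smj-1h_g1_i1 did not overlap. The CPS3 unigenes with MeJA-6h in their names and the one with MeJA-1h in its name were highest in the library they were named for. So was the CPS2 unigene c21908_Smj-1h_g1_i1, at 12.5 RPKM in MeJA-1h. The CPS2 unigene c20665_Smj-6h_g1_i1, named for MeJA-6h, was instead highest in MeJA-1h, at 6.82 RPKM against 5.82 RPKM. How common such a match was among all unigenes named for a library was not counted. The part of the assembly in the levels was not tested.

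Between the YE harvests the summed CPS2 reads had a YE-12h over YE-1h ratio of 0.702 (0.582 to 0.846), and the CPS3 reads one of 1.38 (0.792 to 2.46). All 4 CPS2 unigenes were lower in YE-12h than in YE-1h, at ratios between 0.490 and 0.849. The median log2 ratio of all unigenes was -0.022, so a ratio below 1 was common. The intervals of SmiContig13549 (0.474 to 0.935) and SmiContig9917 (0.240 to 0.878) lay below 1, as 23.4% of all unigenes had them. SmiContig9917, at 0.490, was under 0.5, like 9.37% of all unigenes. The 3 CPS3 unigenes had ratios between 1.24 and 1.99, and every one of their intervals included 1.

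The elicitors shared a harvest time at 1 h. There the summed CPS2 reads had a MeJA-1h over YE-1h ratio of 2.21 (1.90 to 2.57) and the CPS3 reads one of 4.59 (2.88 to 7.61). Of the 7 unigenes, 6 were past 2-fold in favour of MeJA-1h, as were 7.95% of all unigenes. The exception was SmiContig13549 of CPS2 at 1.75 (1.32 to 2.32). The largest ratio was that of c24053_Smj-1h_g1_i1 of CPS3 at 9.48 (3.36 to 36.9), which rests on 4 reads in YE-1h. The intervals of 6 of the 7 lay above 1, as did those of 15.8% of all, and the remaining one was c13063_Smj-6h_g1_i2 of CPS3 at 2.40 (0.975 to 7.37).

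**Figure D3:**
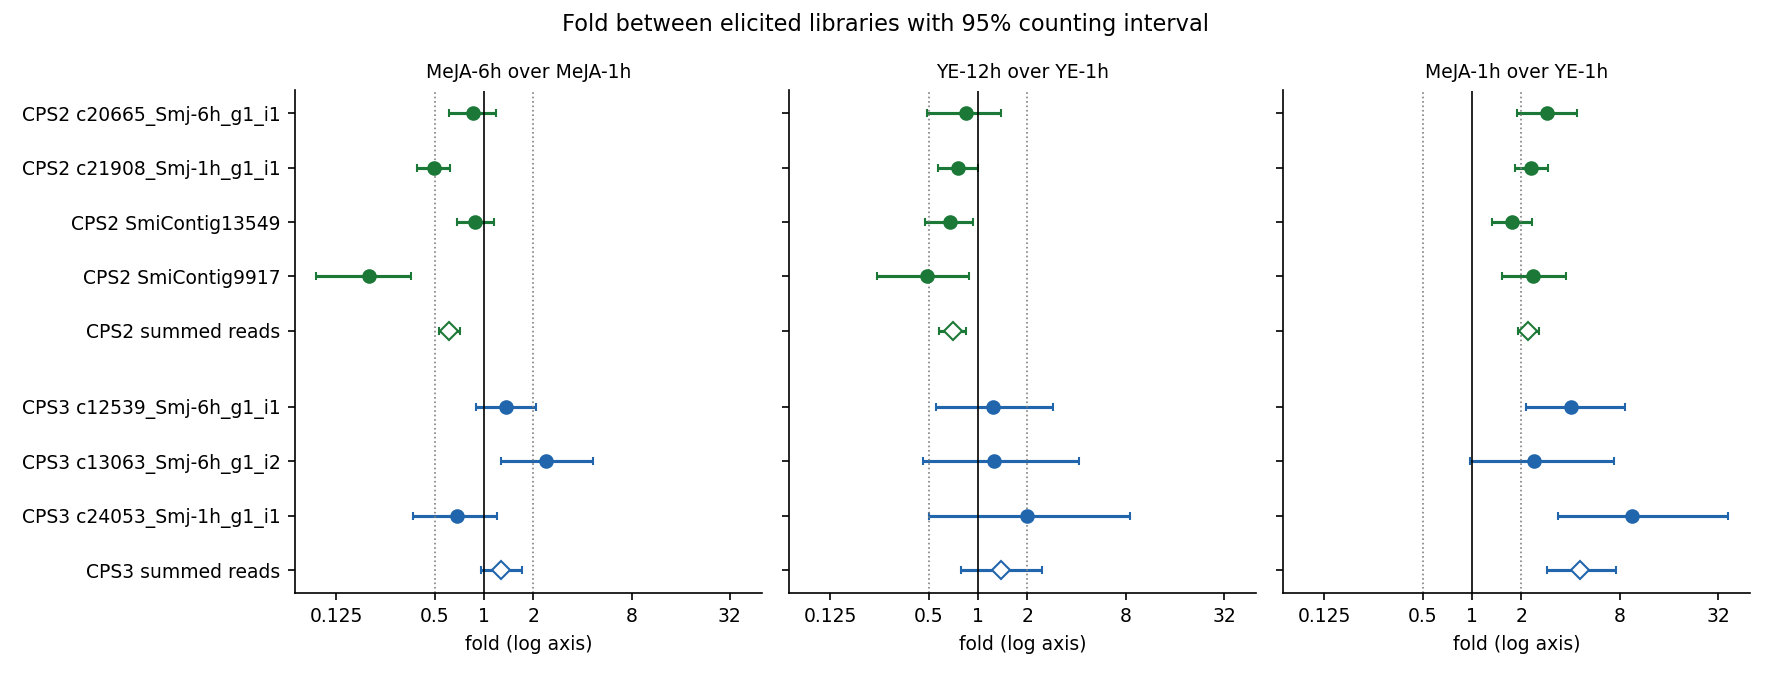
Ratio of MeJA-6h to MeJA-1h, of YE-12h to YE-1h and of MeJA-1h to YE-1h (logarithmic axis) for each unigene and for the summed reads of each gene (open diamonds), with 95% counting intervals and dotted lines at 0.5 and 2. CPS2 is lower at the later harvest of both elicitors, with summed ratios of 0.616 and 0.702, whereas the CPS3 sums are 1.28 and 1.38 with intervals that include 1.

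Per summed length, CPS2 was the more abundant of the pair in every library. Here the summed reads of a gene were divided by the summed length of its unigenes. Such a level depends on whether those unigenes are pieces of the same transcript, which was not tested, and the intervals do not cover this. Among single unigenes the ranges of the genes crossed in MeJA-6h, at 1.61 to 7.92 RPKM for CPS2 and 2.24 to 3.65 RPKM for CPS3. The RPKM of CPS2 from summed reads was 9.55 in MeJA-1h and 5.88 in MeJA-6h, 4.33 in YE-1h, 3.04 in YE-12h and 3.84 in the control. That of CPS3 was 2.49 in MeJA-1h and 3.19 in MeJA-6h, 0.543 in YE-1h, 0.752 in YE-12h and 0.706 in the control. The level of CPS2 over that of CPS3 was 3.83 in MeJA-1h (3.05 to 4.86) and 1.84 in MeJA-6h (1.48 to 2.31), 7.96 in YE-1h (5.20 to 12.8), 4.04 in YE-12h (2.80 to 5.99) and 5.43 in the control (3.44 to 9.01). The genes came closest at 6 h of MeJA, where the interval lay below that of every other library.

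CPS1, the synthase of the tanshinone route, was far more abundant than both. Its RPKM from summed reads was 298 in MeJA-1h and 239 in MeJA-6h, 512 in YE-1h, 384 in YE-12h and 153 in the control. In MeJA-1h its 2 unigenes had 461 and 154 RPKM, so this level too depends on summing their lengths. The level of CPS1 over that of CPS2 was 31.2 in MeJA-1h (28.6 to 34.2) and 40.7 in MeJA-6h (36.3 to 45.7), 118 in YE-1h (105 to 134), 127 in YE-12h (110 to 146) and 39.99 in the control (34.3 to 46.9). The distance between CPS1 and CPS2 was thus widest in the YE libraries. The level of CPS1 over that of CPS3 ran from 75.0 in MeJA-6h to 942 in YE-1h. CPS5 had an RPKM of 7.13 in MeJA-1h and 7.37 in MeJA-6h, 19.4 in YE-1h, 14.7 in YE-12h and 3.60 in the control. By this measure CPS2 lay above CPS5 in MeJA-1h and below it in MeJA-6h and both YE libraries. In the control the interval of their ratio included 1. The order in MeJA-1h depends on dividing by the summed length, since the 2 CPS5 unigenes had 6.77 and 7.56 RPKM there. CPS4 had an RPKM of 22.2 in MeJA-1h and 8.18 in MeJA-6h, 4.60 in YE-1h, 3.49 in YE-12h and 4.16 in the control, from a single unigene of 844 bp. CPS4 lay above CPS2 in both MeJA libraries, and in YE-1h, YE-12h and the control the intervals of their ratio included 1.

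**Figure D4:**
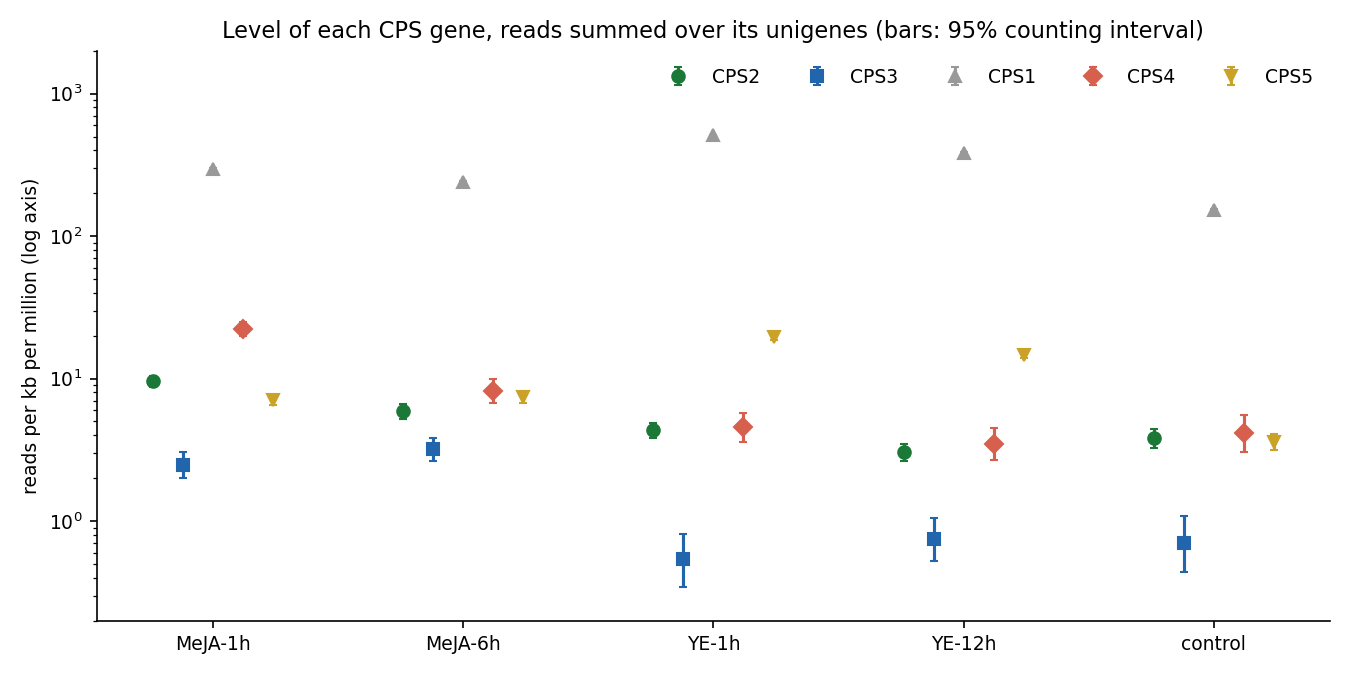
RPKM of each CPS gene in the 5 libraries (reads per kilobase, scaled by the library total, on a logarithmic axis). Reads and lengths were summed over the unigenes of a gene, and bars are 95% counting intervals. CPS1 lies between 153 and 512, CPS2 between 3.04 and 9.55, and CPS3 is the lowest of the 5 genes in every library, between 0.543 and 3.19.

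CPS2 and CPS3 therefore held a small part of the reads of the family. Together they took 1.93% of all CPS reads in MeJA-1h (Wilson interval 1.78 to 2.09) and 1.72% in MeJA-6h (1.56 to 1.89), 0.475% in YE-1h (0.424 to 0.533), 0.478% in YE-12h (0.421 to 0.543) and 1.45% in the control (1.26 to 1.68). The share was lowest in both YE libraries, whose intervals lay below that of the control, while the interval of the share in MeJA-1h lay above it. The CPS family as a whole had 61235 reads in YE-1h and 12926 in the control, nearly all of them from CPS1.

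The profiles of the genes over the 5 libraries were compared as the share of each gene's depth-scaled reads that fell in each library. Of the CPS2 reads, 35.9% fell in MeJA-1h and 22.1% in MeJA-6h, 16.2% in YE-1h, 11.4% in YE-12h and 14.4% in the control. Of the CPS3 reads, 32.4% fell in MeJA-1h and 41.5% in MeJA-6h, 7.07% in YE-1h, 9.78% in YE-12h and 9.18% in the control. CPS3 was thus more concentrated in the MeJA libraries than CPS2 was. CPS4, the one other CPS gene with most of its reads in MeJA, had 52.1% in MeJA-1h and 19.2% in MeJA-6h. CPS1 and CPS5 had their largest shares in YE-1h, at 32.2% and 37.2%.

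**Figure D5:**
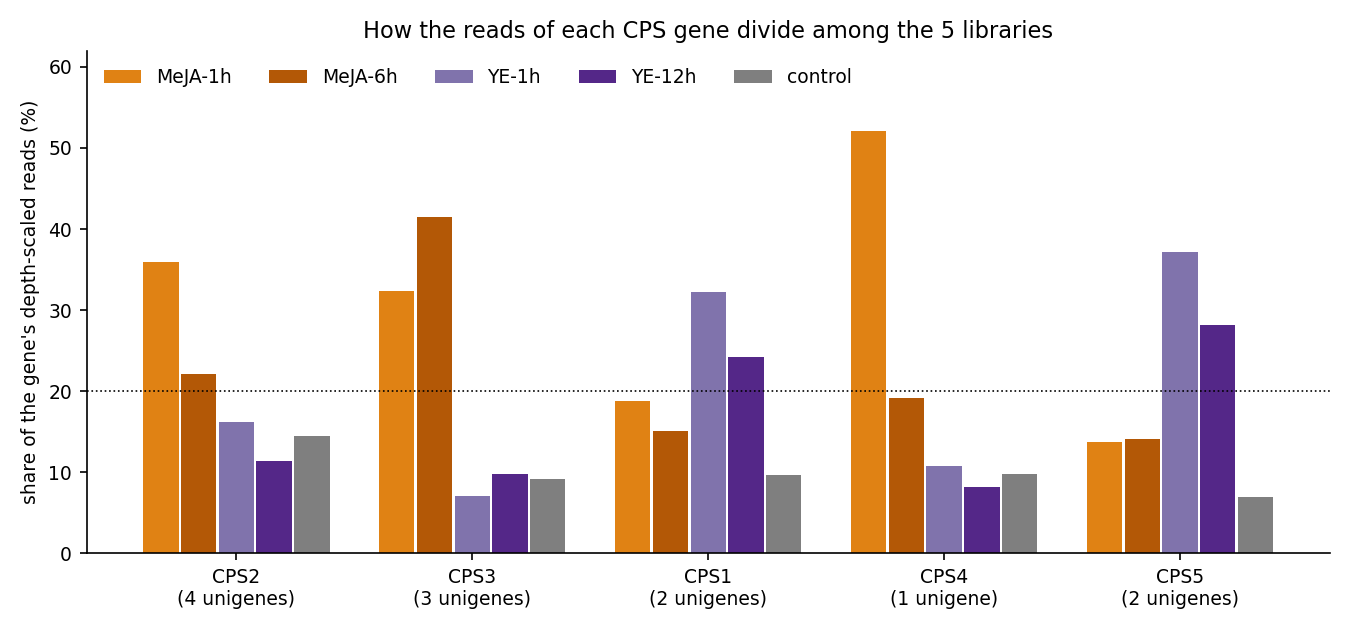
Share (%) of the depth-scaled reads of each CPS gene that fell in each of the 5 libraries, which sum to 100% per gene; the dotted line marks an equal share. The largest share of CPS2 is that of MeJA-1h (35.9%) and that of CPS3 is MeJA-6h (41.5%), whereas CPS1 and CPS5 have theirs in YE-1h.

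As a measure of likeness, the log2 profile of each gene was centred on its own mean over the 5 libraries, and the root mean square difference between 2 profiles was taken. It was 0.696 between CPS2 and CPS3. CPS2 was nearer to CPS4 (0.421) than to CPS1 (0.856) or CPS5 (1.14), and CPS3 likewise was nearer to CPS4 (0.656) than to CPS1 (1.34) or CPS5 (1.56). Among single unigenes the difference had a median of 0.444 over the 6 pairs within CPS2, 0.411 over the 3 pairs within CPS3 and 0.802 over the 12 pairs between them. The ranges overlapped, at 0.325 to 0.845 within CPS2, 0.316 to 0.689 within CPS3 and 0.445 to 1.39 between them.

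The other genes of the tanshinone route on the study's list were counted in the same way. Of these 57 unigenes, 21 were past 2-fold in MeJA-1h and 12 in MeJA-6h, and 49 after 1 h of YE and 26 after 12 h, where the shares of all unigenes were 7.57% and 6.84%, and 7.81% and 4.37%. Their median log2 ratios to the control were 0.38, 0.43, 1.28 and 0.98. The mevalonate pathway, which makes terpenoid precursors in the cytosol, had 12 of 21 unigenes past 2-fold in MeJA-1h and 4 in MeJA-6h, and 19 after 1 h of YE and 5 after 12 h. The MEP pathway, which makes them in the plastid, had 2 of 18 in MeJA-1h and 3 in MeJA-6h, and 17 after 1 h of YE and 10 after 12 h. The P450 genes of the route had none of 6 in either MeJA library, and 5 after 1 h of YE and 6 after 12 h. The prenyl diphosphate enzymes went the other way, with 4 of 5 in MeJA-1h and 2 in MeJA-6h, and 2 after 1 h of YE and 1 after 12 h. GGPPS1, which makes the substrate of the CPS enzymes, had ratios to the control of 1.04 in MeJA-1h and 1.00 in MeJA-6h, and 4.87 after 1 h of YE and 3.30 after 12 h. KSL1, which acts after CPS1, had ratios of 1.28 in MeJA-1h and 1.15 in MeJA-6h, and 5.40 after 1 h of YE and 2.09 after 12 h. GGPPS1 and KSL1 were each read from the unigene of that name with the highest mean RPKM over these libraries. The ratios of these unigenes were larger with YE than with MeJA at every harvest, the opposite of the summed CPS2 and CPS3 reads. This difference between genes was not tested. The list was chosen by the study on these libraries and is not independent evidence of a direction.

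By the same measure of likeness, in which counts below 3 reads were raised to 3, the 94 other unigenes named on the study's lists that had at least 30 reads were ranked against CPS2 and CPS3. Of these 94, 37 (39.4%) stood on the list of phenolic acid genes. The 3 nearest to CPS2 were unigenes of phenylalanine ammonia-lyase, the entry enzyme of the phenylpropanoid pathway: PAL1 (0.241), PAL2 (0.270) and PAL3 (0.280). PAL1 had 20.8 RPKM in MeJA-1h, 9.10 RPKM in MeJA-6h, 6.14 RPKM in YE-1h, 5.23 RPKM in YE-12h and 5.35 RPKM in the control. Of all 54934 unigenes with at least 30 reads, 305 were as near to CPS2 as PAL1 or nearer. The 3 nearest to CPS3 were TAT1 (0.212), a tyrosine aminotransferase, RAS5 (0.231), named as a rosmarinic acid synthase, and CYP98A14 (0.254), a P450 of rosmarinic acid synthesis. The place of RAS5 rested on the raising to 3 reads, since its lowest library had 1 read, and from its RPKM values as deposited the difference was 0.812. Without it the nearest to CPS3 were TAT1, CYP98A14 and HPPR4 (0.259), named as a hydroxyphenylpyruvate reductase, and those nearest to CPS2 were the PAL unigenes already named. TAT1 had 877 RPKM in MeJA-1h, 1130 RPKM in MeJA-6h, 242 RPKM in YE-1h, 216 RPKM in YE-12h and 223 RPKM in the control, far above CPS3 per length. Of all 54934 unigenes, 28 were as near to CPS3 as TAT1 or nearer. The profiles were compared over 5 libraries only, and the median difference over all these unigenes was 0.723 from CPS2 and 1.16 from CPS3. The CPS2 and CPS3 unigenes were chosen with their ratios in these libraries known. From the same libraries the study reported PAL, TAT, HPPR, RAS and CYP98A14 as induced by MeJA, without a clear effect of YE. It reported that qRT-PCR of PAL1, TAT1, HPPR1, RAS1 and CYP98A14 cohered with these values, and CPS2 and CPS3 were not among the genes measured. The nearness to phenolic acid genes is therefore a description and not independent evidence of shared regulation.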

How the data were processed

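Reads of 5 hairy root libraries were filtered by the authors, joined into unigenes by Trinity with no reference genome, and counted as pairs per unigene with a program not given in the sources used here. The deposited estimated counts are whole numbers, not normalized. Reads implied by RPKM exceeded them by over 0.1 in 131 of 188 low counts compared and fell short of them in 0, so their decimals appear to have been dropped. The deposited RPKM values, which relate reads to unigene length and library total, were taken as they stand.

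The members and gene lists were chosen with earlier results of these data known. Ratios are those of RPKM values, or of summed reads scaled by library totals (Python 3.11.15, numpy 2.4.6, pandas 2.3.3, matplotlib 3.10.9). Counts below 3 reads were raised to 3 in ratios and in profiles, which no member needed. Intervals of 95% are exact for ratios (Clopper-Pearson, scipy 1.17.1), Poisson for levels and Wilson for shares. Those for ratios were run on simulated reads drawn with Poisson counting error alone. That is the error they assume, so the run checked the calculation and not whether these data meet it. With 1 library per condition no p-value was computed. Unigenes past a ratio of 2, or under 0.5, were counted, and the share of all unigenes is over those with more than 3 reads in either library. Lengths were computed from reads, RPKM and totals. Named were all CPS unigenes, the unigene with the highest mean for KSL1, CYP76AH1, CYP76AH3 and GGPPS1, and those with the nearest profiles (3 from the study's lists, 2 of all). Alternatives were TMM (edgeR 4.0.16) and DESeq2 1.42.0 factors in R 4.3.3, a pseudocount of 1 RPKM, values under 1 RPKM set to 1, other thresholds, other sets of unigenes per gene and, chosen after seeing the data, sums without each unigene and profiles without the raising to 3 reads. A RefSeq table of 42046 genes matched 0 unigene names, so no sequence is shown.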

Additional observations from a re-analysis of the deposited data

Results flagged for a closer look

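In the following cases the ratios to the control, scaled by the library totals, lay on opposite sides of 1 at the 2 harvest times of 1 elicitor. None of these differences was tested, since each time is 1 library. Of CPS2, SmiContig9917 was at 3.19 in MeJA-1h and 0.630 in MeJA-6h, and at 1.34 in YE-1h, against 0.658 in YE-12h. Also of CPS2, c21908_Smj-1h_g1_i1 was at 1.04 in YE-1h, against 0.785 in YE-12h, and SmiContig13549 at 1.46 in YE-1h, against 0.980 in YE-12h. The summed CPS2 reads were at 1.13 in YE-1h, against 0.792 in YE-12h. Of CPS3, c13063_Smj-6h_g1_i2 was at 0.959 in YE-1h, against 1.20 in YE-12h, and c24053_Smj-1h_g1_i1 at 0.563 in YE-1h, against 1.12 in YE-12h. The summed CPS3 reads were at 0.770 in YE-1h, against 1.07 in YE-12h. With the exception of SmiContig9917 in MeJA-1h and the summed CPS2 reads in YE-12h, the counting intervals of these ratios included 1. The list depends on the scaling. With TMM factors SmiContig13549 (1.61 and 1.095) and c13063_Smj-6h_g1_i2 (1.06 and 1.34) were above 1 in both YE-1h and YE-12h. With the same factors c12539_Smj-6h_g1_i1 of CPS3 lay on opposite sides, at 0.845 in YE-1h and 1.06 in YE-12h.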

How the results depend on the processing

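No ratio past 2-fold reversed under the alternatives that were run. The summed CPS2 ratio in MeJA-1h was 2.49, against 3.02 with TMM and 3.03 with DESeq2 factors, a shift that the scaling itself makes in every unigene. In MeJA-6h it was 1.53, against 1.19 for the longest unigene alone. Of the 7 unigenes, 7 were past 2-fold in MeJA-1h, against 4 with a pseudocount of 1 RPKM, which lowers the ratios of rare unigenes, and 1 when the lower end of the interval had to be over 2. In MeJA-6h the count was 4, against 2 by that interval, 3 with the pseudocount and 5 with TMM or DESeq2 factors. The pseudocount moved single CPS3 ratios most: c13063_Smj-6h_g1_i2 in MeJA-6h was 2.74 in place of 5.50, and c24053_Smj-1h_g1_i1 in MeJA-1h was 2.65 in place of 5.34. With values under 1 RPKM set to 1 these were 3.46 and 3.28. With 5 CPS3 unigenes, CPS2 and CPS3 took 2.20% of CPS reads in MeJA-1h in place of 1.93%, and 2.12% in MeJA-6h in place of 1.72%. Leaving out each unigene in turn, a choice made after seeing the data, gave CPS2 ratios of 2.40 to 2.57 in MeJA-1h and 1.29 to 1.84 in MeJA-6h, and CPS3 ratios of 2.97 to 3.92 and 4.08 to 4.83. No paired analysis was possible because each condition is 1 library. Depth limits CPS3 most, with 5 to 11 reads per unigene in the control, and variation between cultures was not measured.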

Other observations

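The unigene c21908_Smj-1h_g2_i1 came from the same assembly component as the CPS2 unigene c21908_Smj-1h_g1_i1, measured 2832 bp and carries no name in the study's list of tanshinone genes; it was looked up after its values were seen. It had 3.54 RPKM in MeJA-1h, 3.67 RPKM in MeJA-6h, 2.65 RPKM in YE-1h, 2.45 RPKM in YE-12h and 3.25 RPKM in the control, from 161, 164, 143, 141 and 123 reads, so it lacked the high MeJA-1h value of the CPS2 unigene.

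Among all 54934 unigenes with at least 30 reads, those with the profiles nearest to CPS2 were SmiContig19392, at a root mean square log2 difference of 0.0499, and SmiContig2451, at 0.0676. Those nearest to CPS3 were SmiContig11967, at 0.104, and SmiContig21680, at 0.116. SmiContig11967 had 189 RPKM in MeJA-1h, 212 RPKM in MeJA-6h, 43.5 RPKM in YE-1h, 61.2 RPKM in YE-12h and 52.9 RPKM in the control, far above CPS3 in each library.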
